A study of Mus musculus with 8 samples.

Results

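The clustered protocadherins are 58 genes that lie in 3 neighbouring groups on mouse chromosome 18 (GRCm38): Pcdha from 36930285 to 37188897 with 14 genes, Pcdhb from 37264998 to 37521419 with 22 genes, and Pcdhg from 37661775 to 37841873 with 22 genes. Members were taken by symbol, as every gene whose name starts with Pcdha, Pcdhb or Pcdhg, and the family was chosen by its RNA values, because an RNA difference of a member between these libraries was already known. Of the 58, 36 had an RNA value among the 11315 genes listed, namely 17 Pcdhb and 19 Pcdhg genes, and no RNA value was analysed here for the 14 Pcdha genes. For DNA hydroxymethylation, 721 of 1497075 cytosines with reads lay inside the 3 clusters.

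Clustered protocadherins are cell-surface adhesion proteins of the cadherin superfamily that bind to the same isoform on a facing cell. In the Pcdha and Pcdhg groups each gene is a large variable exon with its own promoter, which is spliced to a set of constant exons that all members of the group share, whereas each Pcdhb gene is a single exon. A cell switches on a small set of these promoters, a choice that involves CTCF, cohesin and DNA methylation, and the C-type isoforms (Pcdhac1, Pcdhac2, Pcdhgc3, Pcdhgc4 and Pcdhgc5) are regulated apart from the rest. They are studied mostly in neurons, where the combination of isoforms lets a cell tell its own processes from those of others.

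The libraries came from mouse brain at postnatal day 60, on a C57BL/6 background as labelled. Adult oligodendrocyte progenitor cells (aOPC) were sorted by the green fluorescence of a Pdgfra-H2BEGFP reporter, and adult oligodendrocytes (aOL) by that of a Plp-EGFP reporter, so the reporter line and the population cannot be told apart. RNA and DNA were extracted from the same pellet of cells. The study numbers its libraries, and replicate 1 of each population was not analysed here. RNA of 2 libraries of each population was analysed, and DNA hydroxymethylation in 2 libraries of each, profiled by reduced representation hydroxymethylation profiling (RRHP), which yields a read at a CCGG sequence only where the cytosine carries 5-hydroxymethylcytosine (5hmC). The methods call the RRHP libraries biological replicates, the number of mice behind each library was not given in the sources used here, and p-values measure only the spread between these libraries. The tissue label of the aOL RRHP libraries names the Pdgfra reporter, and they were placed in aOL by title. For RNA, the aOL cells are pre-myelinating by title and myelinating by protocol.

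Values below are given with replicate 2 before replicate 3. RRHP libraries held 7113237 and 17121440 reads for aOPC, against 15923775 and 27057859 for aOL. The RNA values were deposited on a log2 scale without counts, so their depth is unknown. Pdgfra, the receptor behind the aOPC reporter, was at 7.54 and 5.47 in the aOPC libraries and at 4.98 and 1.63 in the aOL libraries, while the median level of 10 oligodendrocyte genes was 18.1 and 17.7 in aOPC against 17.9 and 17.9 in aOL, so the aOPC libraries carried these genes at the aOL level. The summed level of 8 progenitor markers was 13.2 and 10.1 (log2) in aOPC against 10.96 and 11.36 in aOL, so aOPC replicate 3 lay below both aOL libraries. The summed level of 6 fibroblast and meningeal genes was 11.37 and 11.53 in aOPC against 8.43 and 7.59 in aOL, and that of 9 neuronal genes stayed between 12.9 and 13.0 in every library, carried by its most abundant genes. The median level of the 9 was 7.42 in aOPC replicate 2 and 5.35 in aOPC replicate 3 against 5.60 and 5.26 in aOL. Sums of 8 astrocyte genes ran from 13.4 to 13.8 and of 8 microglial genes from 10.3 to 11.4 without separating the groups, and the endothelial marker Cldn5 was at 0.33 and 1.80 in aOPC against 5.92 and 7.13 in aOL. The part of these differences in the results that follow was not tested.

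The question for RNA was how far each isoform differed between progenitors and oligodendrocytes. Most listed members had higher RNA in aOL: the mean was higher in 34 of the 36, all 17 Pcdhb and 17 of 19 Pcdhg genes, against 51.3% of the 11133 genes tested. The median difference, aOL minus aOPC, was 1.05 on the log2 scale for Pcdhb, a fold of 2.07, and 1.25 for Pcdhg, a fold of 2.38, where the median of all genes tested was 0.02. Both aOL libraries lay above both aOPC libraries in 25 members, 11 Pcdhb and 14 Pcdhg, and below them in 1, Pcdhga11. Of all genes tested, 31.9% had both aOL libraries above and 29.9% had both below. Because RNA values chose the family, they are given as a description, and the counts of calls that follow are not evidence for the family. In bulk RNA, fewer cells that express an isoform and less RNA per cell cannot be told apart.

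**Figure D1:**
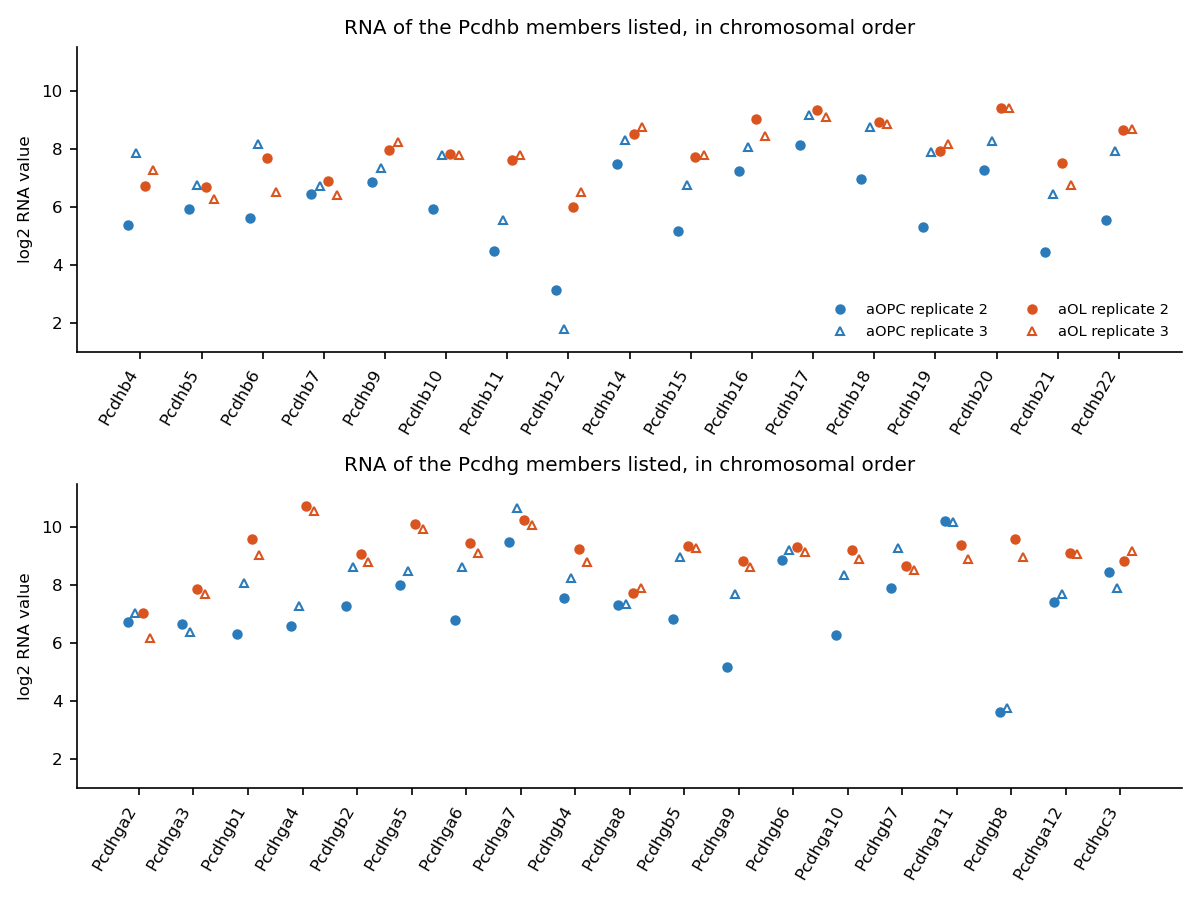
Deposited log2 RNA value of each listed Pcdhb (top) and Pcdhg (bottom) member, in chromosomal order, with 1 point per library (blue aOPC, orange aOL, filled circles replicate 2, open triangles replicate 3). Both aOL points lie above both aOPC points in 25 of the 36 members, and the gap is widest for Pcdhgb8.

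Pcdhgb8 stood at the top of the list. It is annotated at chromosome 18, 37761801 to 37840489, with its variable exon at 37761801 to 37764299, and as a transcribed pseudogene. Its RNA value was 3.64 and 3.77 in aOPC against 9.60 and 8.99 in aOL, a difference of 5.59 ± 0.28 (log2, SE, n = 2 against 2). The libraries of each population lay close together and far from those of the other. Its RNA difference is the one that the choice of the family used. By limma (p under 0.01 and Benjamini-Hochberg adjusted p under 0.05 over 11133 genes) it was the 1 gene called higher in aOL, 0.00898% of those tested, and without the filter on low values it was not called. No member was among the 8 genes called lower, 0.0719% of those tested.

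Pcdhga4, with its variable exon at chromosome 18, 37685237 to 37687817, came next in the Pcdhg group. It stood at 6.60 and 7.29 in aOPC against 10.73 and 10.56 in aOL, a difference of 3.70 ± 0.31. Per kilobase of variable exon its aOL level of 9.28 (log2) was the highest of the 36, where its aOPC level was 5.58. Pcdhga9 stood at 5.18 and 7.71 in aOPC against 8.83 and 8.63 in aOL, a difference of 2.29 ± 0.90, and without aOPC replicate 2 the difference was 1.03.

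Pcdhga11 went the other way. Its value was 10.22 and 10.16 in aOPC against 9.38 and 8.91 in aOL, a difference of -1.05 ± 0.25. Per kilobase it had the highest aOPC level of the 36, at 8.82, followed by Pcdhga7 at 8.72. Pcdhga7 stood at 9.49 and 10.65 in aOPC against 10.26 and 10.08 in aOL, so its groups overlapped, with a difference of 0.10 ± 0.45. Pcdhga2, the member at the low end of the Pcdhg group beside Pcdhgb8, was at 6.74 and 7.05 in aOPC against 7.05 and 6.18 in aOL, a difference of -0.28 ± 0.37, and its groups overlapped too. Pcdhgc3, the one C-type isoform with an RNA value, was at 8.44 and 7.89 in aOPC against 8.83 and 9.18 in aOL, a difference of 0.84 ± 0.29.

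In the Pcdhb group the 3 widest gaps belonged to Pcdhb12, Pcdhb11 and Pcdhb22, which lie at 37435621 to 37438654, 37421418 to 37425032 and 37518353 to 37521419. Pcdhb12 stood at 3.12 and 1.80 in aOPC against 5.99 and 6.50 in aOL, a difference of 3.79 ± 0.52, and it too met the filter on low values through aOL alone. Pcdhb11 was at 4.46 and 5.54 in aOPC against 7.61 and 7.76 in aOL, a difference of 2.69 ± 0.42. Pcdhb22 was at 5.53 and 7.90 in aOPC against 8.63 and 8.69 in aOL, a difference of 1.94 ± 0.84. In each of the 3 the groups did not overlap. The value of Pcdhb22 and its place among the 3 depended on 1 library, since the difference was 0.76 without aOPC replicate 2, where that of Pcdhb20 was 1.13, and 3.13 without aOPC replicate 3. Pcdhb21, at the low end of the Pcdhb levels, was at 4.45 and 6.43 in aOPC against 7.50 and 6.73 in aOL. Of the 2 Pcdhb genes with the highest levels, Pcdhb17 was at 8.12 and 9.18 in aOPC against 9.32 and 9.09 in aOL, with overlapping groups, and Pcdhb20 was at 7.27 and 8.26 in aOPC against 9.40 and 9.38 in aOL, without overlap.

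The 2 aOPC libraries were less alike than the 2 aOL libraries, in all genes as in the members. The median absolute difference between replicates was 0.48 in aOPC and 0.12 in aOL over all genes tested, and 1.07 and 0.25 over the members. In aOPC, replicate 3 was above replicate 2 in 32 of the 36 members, by a median of 1.02, where it was above in 55.4% of all genes tested, by a median of 0.09. In aOL the median of replicate 3 minus replicate 2 was -0.17 over the members. Without aOPC replicate 2, the median difference was 0.32 for Pcdhb and 0.72 for Pcdhg, and without aOPC replicate 3 it was 1.89 and 1.65. The median stayed above 0 whichever library was left out, while its size moved by over 1.5 times with the aOPC library kept.

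Other genes of the pathway lay on both sides of 0. The counts below stand beside 31.9% of all genes tested with both aOL libraries above and 29.9% with both below. Of 12 protocadherins outside the clusters, 9 had an RNA value, 4 had both aOL libraries above both aOPC libraries and 3 had both below. Pcdh1 was at 8.16 and 8.86 in aOPC against 9.86 and 9.55 in aOL, and Pcdh7 was at 10.56 and 10.49 in aOPC against 9.32 and 9.25 in aOL, with a median difference of 0.06 over the 9. Of 18 regulators of promoter choice and silencing with a value, 9 had both aOL libraries above and 3 had both below, with a median of 0.23. The cohesin subunit gene Stag2 was at 12.69 and 12.43 in aOPC against 13.70 and 13.61 in aOL. Ctcf, whose product marks these promoters, was at 12.09 and 12.60 in aOPC against 12.22 and 12.19 in aOL, with overlapping groups.

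Of 15 genes for intracellular partners, 8 had both aOL libraries above and 3 had both below (31.9% and 29.9% of all genes tested), with a median of 0.31. Nckap1, which encodes a subunit of the actin-regulating WAVE complex, was at 13.25 and 12.63 in aOPC against 14.12 and 14.21 in aOL. Among 13 genes that flank the clusters on the chromosome, 1 had both aOL libraries above and 6 had both below, with a median of -0.33, where the median of all 36 members was 1.10. Taf7, which lies between Pcdhb and Pcdhg, was at 11.09 and 11.72 in aOPC against 10.66 and 10.65 in aOL. No gene of these 4 lists was called in either direction by limma.

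The question for RRHP was whether 5hmC at the clusters differed between the populations, and where along the genes it lay. RRHP counts were summed by position. A CCGG sequence gives 1 cytosine on each strand, and the 3 clusters hold 404, 348 and 514 such strand-sites. Reads were seen at 55.9% of the strand-sites of Pcdha, 47.4% of those of Pcdhb and 64.2% of those of Pcdhg, against 45.8% in the whole genome and 56.0% in exons of protein-coding genes.

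Both aOL libraries had a lower RRHP level over the Pcdhg cluster than both aOPC libraries, while over the other clusters the groups overlapped. In CPM, counts scaled to the library total and by the TMM factor, Pcdhg had 263 and 192 in aOPC against 157 and 171 in aOL, an aOL over aOPC ratio of 0.72. Pcdha had 143.1 and 120.7 in aOPC against 134.2 and 137.6 in aOL, a ratio of 1.03, and Pcdhb had 129.6 and 99.6 in aOPC against 103.3 and 121.2 in aOL, a ratio of 0.98. The groups of Pcdhg did not overlap, and the exact two-sided permutation test gave p = 0.33, the smallest that 2 libraries against 2 allow. For both Pcdha and Pcdhb the same exact permutation test gave p = 1.0.

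Per CCGG strand-site, the signal was higher in the variable exons than in the 2 kb in front of them in all 3 clusters. The variable exons of Pcdhg had 0.51 CPM in aOPC and 0.34 in aOL, and the 2 kb in front of them 0.29 and 0.30. In Pcdha the values were 0.33 and 0.35 in the variable exons and 0.074 and 0.052 in front of them, and in Pcdhb they were 0.34 and 0.36 in the exons and 0.21 and 0.17 in front. Other sequence of the clusters, outside the exons and these windows, had 0.32 and 0.31 in Pcdha, 0.35 and 0.32 in Pcdhb and 0.30 and 0.25 in Pcdhg. The variable exons stood clear of that sequence in Pcdhg and lay near it in Pcdha and Pcdhb. The bin from 500 to 1000 bp into the exon was the highest for Pcdhb in both populations, at 0.62 and 0.73, and for Pcdhg in both, at 0.78 and 0.54. The constant exons of the 2 groups were unlike: those of Pcdha had reads at 10 of 20 strand-sites with a mean of 0.77 CPM per site over both populations, and those of Pcdhg at 1 of 6 with 0.023.

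**Figure D2:**
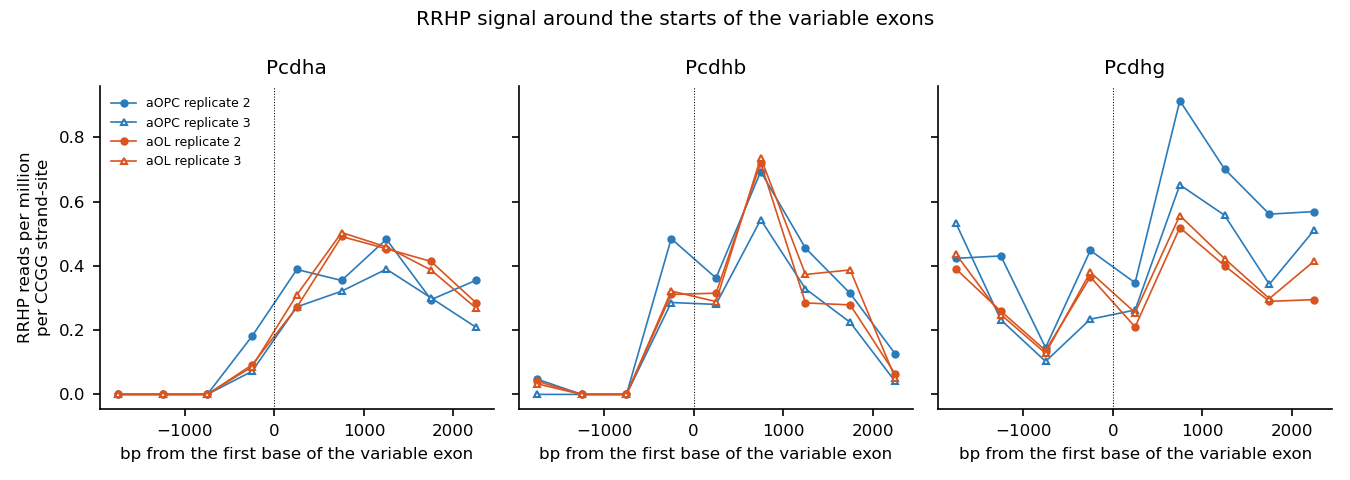
RRHP CPM per CCGG strand-site (vertical axis) in bins of 500 bp around the first base of the variable exons (horizontal axis, in bp, dotted line at 0), summed over the exons of Pcdha, Pcdhb and Pcdhg, with 1 line per library (blue aOPC, orange aOL). In Pcdhg both aOPC lines lie above both aOL lines in every bin from 0 bp on, the 500 to 1000 bp bin standing at 0.91 and 0.65 in aOPC against 0.52 and 0.56 in aOL.

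By variable exon, the Pcdhg exons lay mostly lower in aOL, while the median of Pcdha lay on either side of 1 by the sums, members and scaling used. Summed by position and scaled by the TMM factors of the sites, 1 exon of Pcdhg had both aOL libraries above both aOPC libraries and 13 of 22 had both below, against 5 above and none below of 14 in Pcdha, and 2 above and 2 below of 22 in Pcdhb. The median ratio, aOL over aOPC, was then 0.97 in Pcdha, 1.06 in Pcdhb and 0.76 in Pcdhg. The 13 Pcdhg exons include Pcdhgb7, with a ratio of 0.96. On this scaling, sites in the exon column over the whole genome had a mean CPM of 0.69 in aOPC and 0.63 in aOL. The share of all exons with both aOL libraries above or below was not taken on it. With the deposited exon column and its own TMM factors, 3 of 22 Pcdhg exons had both aOL libraries above and 12 had both below, against 8 above and none below of 12 in Pcdha, and 5 above and 1 below of 17 in Pcdhb. The median fitted fold was then 1.38 in Pcdha, 1.27 in Pcdhb and 0.83 in Pcdhg. Of all 14139 genes tested on that column and scaling, 18.4% had both aOL libraries above and 17.2% had both below. No reads were listed at the exons of Pcdha9, Pcdhb4, Pcdhb6 and Pcdhb8.

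**Figure D3:**
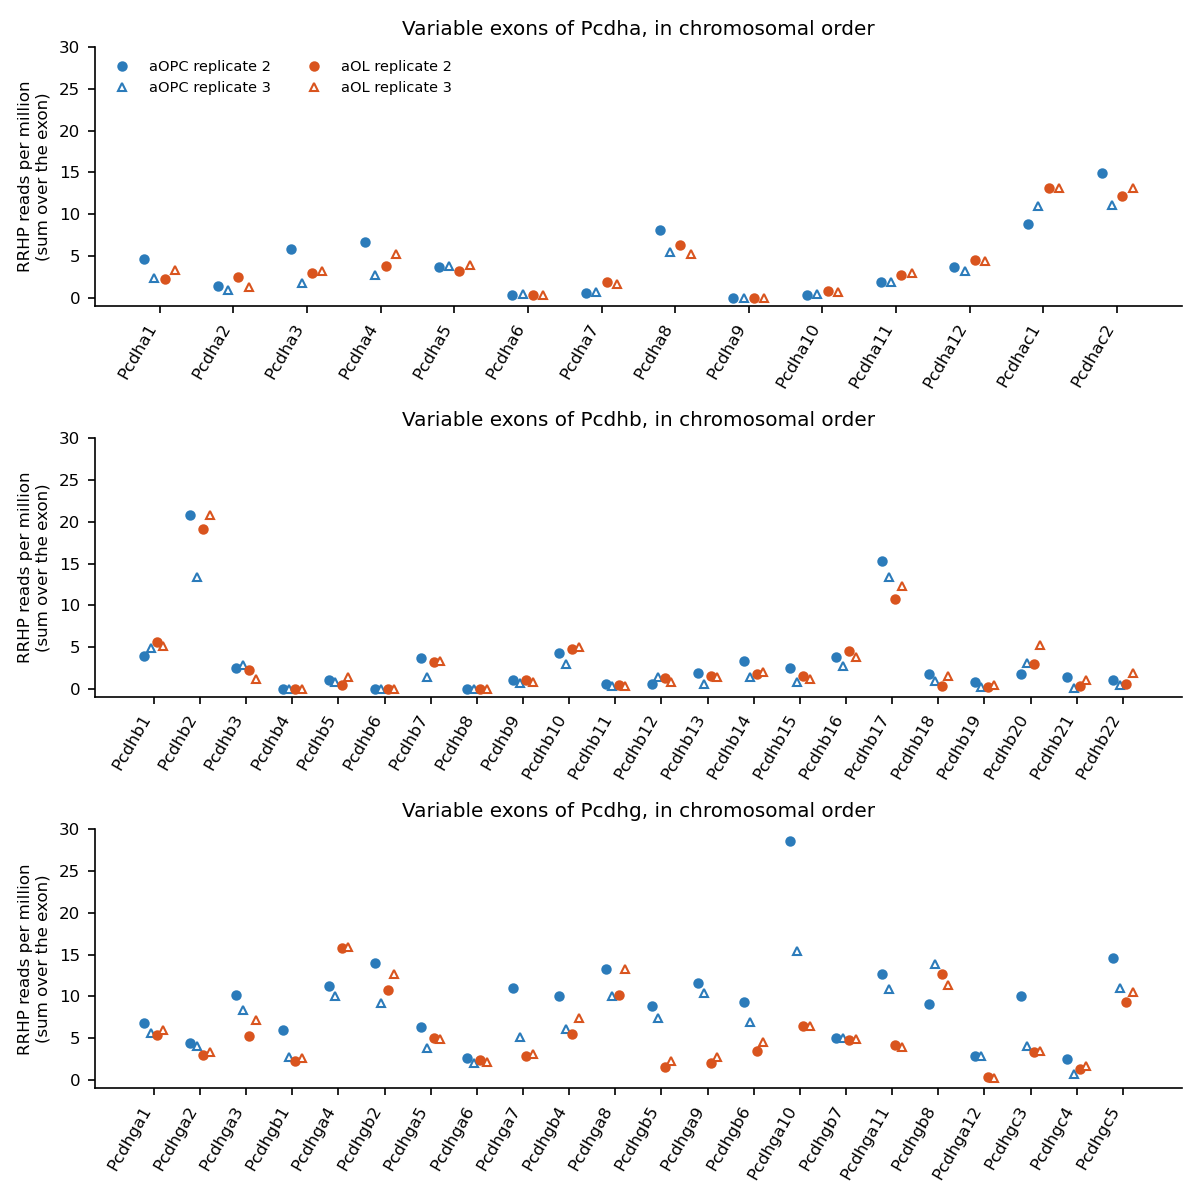
RRHP CPM summed over each variable exon, in chromosomal order, with 1 point per library (blue aOPC, orange aOL, filled circles replicate 2, open triangles replicate 3). Scaled by the TMM factors of the sites, in the Pcdhg panel the 2 orange points lie below both blue points at 13 of 22 exons, most widely at Pcdhga10, Pcdhga9 and Pcdhga11.

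Of the 51 members whose exon sum was tested, 4 were called by edgeR (quasi-likelihood test, Benjamini-Hochberg adjusted p under 0.05 over 14139 genes), all lower in aOL, where 0.297% of genes were called lower. All 4 are Pcdhg genes in the stretch from Pcdhgb5 to Pcdhga11. Pcdhga12, beyond it, had the lowest ratio of all exons, 0.12, at 2.86 and 2.86 CPM in aOPC against 0.41 and 0.26 in aOL, and a fitted log2 difference of -2.97 ± 0.63 that missed the threshold, with an edgeR adjusted p of 0.075. Its site 37766961 on the minus strand, with 10 and 38 reads against 3 and 4, was among those called lower. The fit used the deposited exon column and its own TMM factors, whereas CPM values here are summed over the annotated variable exon, which held 16 sites with reads for Pcdhgb5 where the column held 13, and 20 for Pcdhga10 where it held 14. None was called higher, where 0.156% of genes were.

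Pcdhga9, at 37736936 to 37739543, had 11.6 and 10.4 CPM over its variable exon in aOPC against 2.05 and 2.71 in aOL. The fitted log2 difference was -2.04 ± 0.26 with an edgeR adjusted p of 0.0026. Pcdhgb5, at 37730971 to 37733559, had 8.89 and 7.45 in aOPC against 1.52 and 2.27 in aOL, a log2 difference of -2.97 ± 0.36 with an edgeR adjusted p of 0.0018. The 2 exons are neighbours, and in both the aOL libraries lay at less than 3 CPM.

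Pcdhga10, at 37747016 to 37749605, had the most reads of the Pcdhg exons in aOPC. It had 28.6 and 15.4 CPM there and 6.44 and 6.51 in aOL. The fitted level was 2.84-fold lower in aOL with an edgeR adjusted p of 0.0066. Pcdhga11, at 37755773 to 37758367, had 12.7 and 10.9 in aOPC against 4.21 and 3.92 in aOL, a log2 difference of -1.38 ± 0.24 with an edgeR adjusted p of 0.019. Without aOL replicate 2 or without aOL replicate 3, Pcdhga10 and Pcdhga11 were no longer called and Pcdhgb5 and Pcdhga9 were.

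The lower signal was not shared by every exon of the stretch. Pcdhgb7, between Pcdhga10 and Pcdhga11, had nearly equal levels, at 5.08 and 5.04 CPM in aOPC against 4.80 and 4.94 in aOL. Pcdhgb8, after Pcdhga11, had 9.05 and 13.9 in aOPC against 12.6 and 11.4 in aOL, a log2 difference of 0.13 ± 0.28 with an edgeR adjusted p of 0.94. Pcdhga4, further upstream, had both aOL libraries above in both kinds of sum, at 11.3 and 10.1 in aOPC against 15.7 and 15.9 in aOL, and its log2 difference of 0.72 ± 0.20 did not pass, with an edgeR adjusted p of 0.30. Pcdhgb2 and Pcdhga8 had both above only in the sums of the exon column with its own scaling. The exon sums with the most counts in the other clusters did not pass either. That of Pcdha3 held 120 and 270 reads in 18 sites of the deposited column in aOPC against 290 and 457 in aOL. Only 9 sites with reads lay inside its annotated variable exon, with 37 and 32 reads in aOPC against 50 and 87 in aOL. In CPM over the variable exon, Pcdhb2 had 20.8 and 13.4 in aOPC against 19.1 and 20.8 in aOL, Pcdhb17 had 15.2 and 13.4 against 10.8 and 12.3, and Pcdhac2 had 14.9 and 11.1 against 12.2 and 13.1.

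Among the C-type exons, summed by position and scaled by the site factors, Pcdhac1 had both aOL libraries above and Pcdhgc3 and Pcdhgc5 had both below. With the exon column and its own scaling, Pcdhac2 had both above as well, at 11.72 and 11.67 in aOPC against 13.27 and 13.14 in aOL. The values that follow are summed by position. Pcdhac1 had 8.89 and 11.0 CPM in aOPC against 13.2 and 13.1 in aOL. Pcdhgc3 had 10.01 and 4.09 against 3.34 and 3.48, Pcdhgc4 had 2.54 and 0.78 against 1.29 and 1.72, and Pcdhgc5 had 14.6 and 11.0 against 9.30 and 10.5. None of the 5 was called.

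No promoter sum and no intron sum of a member was called in either direction. Of the 41 members whose promoter sum was tested, 8 were higher and 2 were lower at an unadjusted p under 0.05, where 4.18% and 1.79% of all genes were. After adjustment 0.418% of all genes were called higher and 0.350% lower. The lowest adjusted p by edgeR was 0.092, for Pcdhga9. Promoter sums were scaled by their own TMM factors, at 1.75 for aOPC replicate 2, where its factor over sites was 0.885. How many of the 8 higher sums rest on that scaling was not tested. With no scaling beyond the library total, 0 members were called higher and 2 lower, where 0.213% and 0.466% of all genes were. Member sites in the deposited promoter column lay from 896 bp before to 1195 bp past the annotated start of the variable exon, with a median of 405 bp past it, so promoter and exon sums share sites. The promoter sums with the most reads were those of Pcdhac2 and Pcdha8, Pcdhb2 and Pcdhb17, and Pcdhga4 and Pcdhga11, with an edgeR adjusted p from 0.973 to 0.998. Of the 9 intron sums tested, that of Pcdhgb5, which covers much of the Pcdhg cluster with 170 sites, was the lowest at -0.62 ± 0.12 with an edgeR adjusted p of 0.062. It was the 1 intron sum lower at an unadjusted p under 0.05, where 5.09% of genes were, and none was higher, where 3.15% were. Of all genes, 0.186% had an intron sum called higher and 0.863% one called lower.

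By single cytosine, 235 sites of the clusters had at least 10 reads in at least 2 libraries, and 12 were called by edgeR at an adjusted p under 0.05 over 443062 sites. All 12 lay in Pcdhg, 4 higher and 8 lower in aOL, of 113 tested there. Of all sites tested, 1.21% were called higher and 1.08% lower. None was called among 70 sites of Pcdha or 52 of Pcdhb, where 4 and 3 were higher and 1 and 3 lower at an unadjusted p under 0.05, against 5.45% and 4.31% of all sites.

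In 10 of the 12 called sites one population had at most 3 reads in either library, and such a site passed the filter on reads through the other population alone, so its values are given as a description. With at least 10 reads required in every library, 83 sites of the clusters were tested, none was called lower and 1 was called higher, where 0.153% and 0.134% of all sites were. At 37748264 on the minus strand, in the exon of Pcdhga10, the counts were 28 and 37 in aOPC against 0 and 0 in aOL, at least 22.8-fold lower when both aOL libraries are set to a floor of 3 counts. At 37748263, the plus strand of the same CpG, they were 12 and 22 against 0 and 0. In the exon of Pcdhgb6, the site 37744583 on the plus strand had 16 and 41 against 0 and 0, and 37744658 on the minus strand had 14 and 26 against 0 and 0. In the exon of Pcdhgb5, 37731596 on the plus strand had 20 and 38 against 0 and 1. These are the 5 called sites with the largest fall, and in each the aOL counts were 0 or 1.

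Of the 4 called higher, 3 were at 0 in both aOPC libraries. The site 37726627 on the minus strand, in the exon of Pcdhga8, had 20 and 34 reads in aOL, at least 3.75-fold higher against the floor. The site 37685954 on the minus strand, in the exon of Pcdhga4, had 14 and 32, and 37683067 on the minus strand, between the exons of Pcdhgb1 and Pcdhga4, had 18 and 38. The opposite strands of the CpGs at 37726627 and 37685954 were read in both populations, with up to 19 and 29 reads in aOPC. For 37683067 no reads were listed on the opposite strand. The fourth, 37755742 on the plus strand in a CpG island just in front of the Pcdhga11 exon, had 11 and 29 reads in aOPC against 75 and 113 in aOL, a log2 difference of 1.35 ± 0.33 with an edgeR adjusted p of 0.0496, and lost the call when aOPC replicate 3 or either aOL library was left out.

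The most heavily read sites of the clusters were not among those called, apart from 37755742. In Pcdha the top site, 36987235 on the plus strand outside the exons, had 74 and 155 reads in aOPC against 143 and 331 in aOL, followed by 37156422 on the minus strand, with 22 and 117 against 113 and 154, and 37185757 on the plus strand in a constant exon, with 30 and 106 against 105 and 156. In Pcdhb the top sites were 37330109 on the plus strand, with 35 and 92 against 81 and 136, 37295700 on the plus strand in Pcdhb2, with 33 and 59 against 93 and 139, and 37365605 on the minus strand, with 24 and 78 against 57 and 132. In Pcdhg they were 37805254 on the plus strand in front of Pcdhgc3, with 36 and 56 against 61 and 91, 37822667 on the plus strand, with 35 and 38 against 35 and 63, and 37755742. Scaled to CPM, the groups overlapped at 7 of these 9 sites, both aOL libraries lying below at 37330109 and above at 37755742.

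Sites at 0 in both aOL libraries were frequent in the called exons. Among sites with a read in at least 2 libraries, 23 of 62 in the variable exons of Pcdhgb5, Pcdhga9, Pcdhga10 and Pcdhga11 were at 0 in both aOL libraries (37.1%), and none was at 0 in both aOPC libraries. In the whole genome 2.28% of such sites were at 0 in both aOL libraries and 5.75% at 0 in both aOPC libraries, in Pcdha 0.53% and 1.59%, in Pcdhb 8.22% and 3.42%, and in Pcdhg 12.7% and 3.68%. The 4 exons were chosen for their lower aOL counts, so their share is a description. By exon, over all sites with reads, in the exon of Pcdhga11, 6 of 15 sites with reads were at 0 in both aOL libraries, and in that of Pcdhga10, 6 of 20. In the exon of Pcdhga9, the plus strand of the CpG at 37736966 had 8 and 20 reads in aOPC against 14 and 37 in aOL, while its minus strand had 6 and 27 against 0 and 0.

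The exon sums were also taken over only the sites that had a read in both populations, a restriction that removes the sites with the deepest fall, so that narrower ratios and fewer calls follow from how it is made. In that form the ratio of aOL to aOPC was 0.36 in place of 0.22 for Pcdhga9, 0.39 in place of 0.23 for Pcdhgb5, 0.48 in place of 0.29 for Pcdhga10 and 0.60 in place of 0.34 for Pcdhga11, and both aOL libraries remained below both aOPC libraries in each. For Pcdhgb6 it was 1.01 in place of 0.49. No exon of a member was then called by edgeR, where 0.0647% of all genes were called lower, the lowest adjusted p among the 4 being 0.14, and the ratio of the whole Pcdhg cluster was 0.83 in place of 0.72, with groups that overlapped, at 223 and 163 CPM in aOPC against 153 and 166 in aOL. Over the 1 Mb from 37 to 38 Mb of the chromosome, 4.67% of tested sites had at most 3 counts in both libraries of one population and at least 10 in both of the other, which ranked 369 of 2514 such stretches, against 3.04% over all sites tested. Such sites made up 3.29% of those tested from 36 to 37 Mb and 7.28% from 38 to 39 Mb. In the clusters themselves they were 12 of 113 tested sites of Pcdhg (10.6%), 1 of 70 in Pcdha and 0 of 52 in Pcdhb. What sets these sites apart was not tested.

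The RNA and RRHP differences of the Pcdhg members took several combinations of direction. Pcdhgb8 had the largest RNA difference and an RRHP ratio of 1.05. Pcdhga9, Pcdhgb5 and Pcdhga10 had lower RRHP counts in aOL and RNA differences of 2.29 ± 0.90, 1.42 ± 0.77 and 1.74 ± 0.74 (log2, SE), none of them called. The RNA of Pcdhgb5 was at 6.83 and 8.98 in aOPC against 9.36 and 9.28 in aOL, and that of Pcdhga10 at 6.30 and 8.34 against 9.21 and 8.91. In all 3 aOPC replicate 2 was the lowest library, and without it the differences were 1.03 for Pcdhga9, 0.34 for Pcdhgb5 and 0.72 for Pcdhga10. Pcdhga11 had both aOL libraries below in RNA and in RRHP counts of its variable exon, and Pcdhga4 had both above in both, with an RRHP ratio of 1.48. In the 2 kb in front of the exon the RRHP direction was the opposite for both, at 6.19 and 5.43 CPM in aOPC against 9.07 and 9.92 in aOL for Pcdhga11, and with a ratio of 0.65 from a single site with reads for Pcdhga4. Over 19 Pcdhg members, Spearman's rho between the RNA difference and the log2 RRHP ratio of the variable exon was 0.16, and over 15 Pcdhb members with reads it was 0.01, given as a description since the members share libraries and the number of CCGG sites differs from 6 to 32 per Pcdhg exon. For levels, rho between the RNA value and RRHP reads per strand-site in aOL was 0.01 over 19 Pcdhg members and 0.51 over 17 Pcdhb members.

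**Figure D4:**
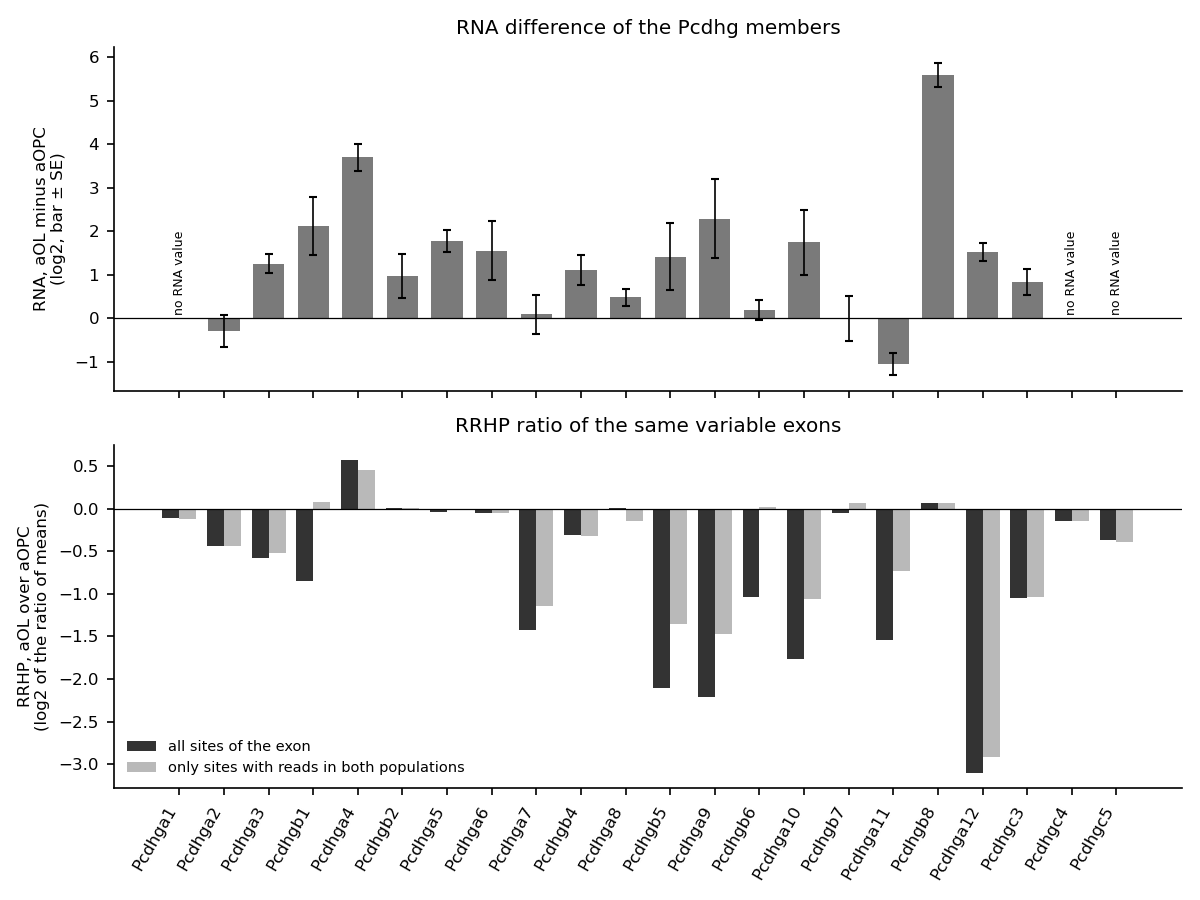
Top, RNA difference (aOL minus aOPC, log2, bar with SE from limma, 2 libraries per population) of each Pcdhg member in chromosomal order. Bottom, log2 of the aOL to aOPC ratio of RRHP CPM over the same variable exons, for all sites (dark) and only for sites with reads in both populations (light). Pcdhgb8 has the tallest RNA bar, at 5.59, and an RRHP ratio of 1.05, while Pcdhgb5, Pcdhga9 and Pcdhga10 have RNA bars above 0 and RRHP bars below 0.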

How the data were processed

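RNA reads were aligned by the authors to mm10 with BWA, uniquely aligned reads in exons were counted with featureCounts, and counts were normalised with DESeq2 (1.2.5 per the submitters' processing notes). The deposited RNA values are log2 levels per gene with nearly equal quantiles in the 4 libraries. How the listed genes were chosen, how the quantiles came to be equal and how reads in exons shared by Pcdhg members were assigned is not given in the sources used here. For RRHP, the authors deposited a read count per cytosine and strand, with promoter, exon, intron and CpG island columns. All 1494474 sites on the primary chromosomes lay at a CCGG of GRCm38.

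Differences are aOL minus aOPC. RNA was fitted with limma 3.58.1 over 11133 genes that reached a log2 value of 5 in 2 or more libraries. RRHP was fitted with edgeR 4.0.16 (TMM, quasi-likelihood) over sites that reached 10 reads in 2 or more libraries, and over exon, promoter and intron sums that passed filterByExpr. TMM factors ranged from 0.885 to 1.07 over sites and from 0.757 to 1.75 over promoter sums. Variable exons were taken from RefSeq on GRCm38, and reads labelled Pcdha4-g were placed by position. Genes were called in RNA at p under 0.01 and adjusted p under 0.05, and in RRHP at adjusted p under 0.05. Scripts were tested on simulated data. Alternatives were other scalings, filters and pairings, each library left out, and DESeq2 1.42.0.

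Genes named with values were each C-type isoform, per cluster the 2 highest, the 2 lowest and the 3 most different without overlap, and every call. Named for RRHP were the 3 most read sites, the 2 exons and 2 promoters with the most reads per cluster, every called exon, and the 5 called sites with the largest fold in each direction. Genes outside this rule (among them Pcdhgb7, Pcdhgb6, Pcdhga12, Pcdhgb2, Pcdhga8, Pcdh1, Pcdh7, Stag2, Nckap1, Taf7 and Ctcf) were chosen after their values were seen. Members and lists were chosen with earlier results of these data known. A count of 3 was taken as the floor for a count of 0, and it covers counting error only. Chromosome 18 sequence is not reported here.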

Additional observations from a re-analysis of the deposited data

Results flagged for a closer look

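Reads under the symbol Pcdha4-g, a read-through of the annotation that spans Pcdha, Pcdhb and part of Pcdhg, entered no test of a member by symbol, and are given because they lie above the 3 counts that a count of 0 allows. They came to 15279 reads at 404 sites in the intron column and 298 reads at 9 sites in the exon column over the 4 libraries. The intron sum differed by 0.05 ± 0.11 (log2, aOL minus aOPC) with an edgeR adjusted p of 0.90.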

How the results depend on the processing

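Calls in RNA, a description since RNA values chose the family, depended on the setting, while the median difference of both clusters stayed above 0. The number of members called higher in aOL was 1, and it was 0 without the filter on low values, where no gene was called, and 4 with the replicate number as a block (Pcdhb11, Pcdhb12, Pcdhga4 and Pcdhgb8), where 0.269% of all genes were called higher. With each library left out it was 3 to 23, namely 11 without aOPC replicate 2 (17.1% of all genes), 23 without aOPC replicate 3 (9.90%) and 3 without either aOL library (0.243% and 0.171%). The median difference of Pcdhg ranged from 0.72 to 1.65 and that of Pcdhb from 0.32 to 1.89 over these.

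For RRHP sites, the 4 called higher became 1 with at least 10 reads in every library (0.134% of all sites), 1 with the strands of a CpG added (0.897%), 1 without sites read in a single population (0.293%) and 0 to 6 when each library was left out (0.118% to 1.57%). The 8 called lower became 37 with a filter of at least 1 read in 2 libraries (32 of them in Pcdhg, 10.7% of 299 tested there, where 0.876% of all sites were), 0 with at least 10 reads in every library (0.153%), 14 with strands added (1.05%), 1 without sites read in a single population (0.264%) and 3 to 8 when each library was left out (0.569% to 1.08%).

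The 4 exons called lower became 0 without sites read in a single population, where no gene was called, 0 with only sites that had reads in both populations (0.0647% of all genes), and 2 to 8 when each library was left out (0.167% to 7.38%). Exons called higher went from 0 to a range of 0 to 6 when a library was left out (0.0522% to 8.29%). Promoters called higher went from 0 to 1 without a filter (0.832%) and to 0 to 11 when a library was left out (0.204% to 9.68%), and those called lower from 0 to 2 with no scaling beyond the library total (0.466%), 1 without a filter (0.470%) and 0 to 2 when a library was left out (0.682% where it was 2, without aOPC replicate 2). Introns called lower went from 0 to 1 without a filter (1.12%), 1 by DESeq2 (1.19%), 1 with the replicate block (1.40%) and 0 to 2 when a library was left out (0.591% to 11.2%), and those called higher to 0 to 2 (0.115% to 9.73%). The upper ends of the shares for exons, introns and promoters called higher came without aOPC replicate 3. With a library left out, the lone library of its population is assumed to vary like the others. Removal of single-population sites was chosen after seeing the data and takes out the sites that differ most. Over the settings run, the cluster ratio of Pcdhg ranged from 0.62 to 0.86. Every cluster ratio moved by less than the SD of the 4 ratios of 1 aOL to 1 aOPC library. Ratios with a library left out come from those same libraries, so that comparison does not measure how stable the ratios are.

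Libraries with the same number come from different reporter lines. Their deviations correlated at -0.074 in RNA, -0.080 over RRHP sites and -0.37 over exon sums, so the numbers were not taken to pair them. With the replicate block, 3 sites were called higher, 8 sites lower and 4 exons lower, where 1.69% and 1.25% of all sites and 0.332% of all genes were. With the pairing crossed, 1 exon, 1 promoter and no intron were called higher (0.941%, 1.71% and 1.42% of all genes) and 6 exons, 1 promoter and 1 intron lower (1.03%, 0.604% and 3.12%). Among single members and sites, 69 RNA and 326 RRHP alternative values kept their side of the threshold, 1 and 24 lost the call, 21 and 4 gained it, and no called value changed sign. The depth of 7113237 reads in aOPC replicate 2 limits what a count of 0 there can show.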

Other observations

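The stretch between Pcdhb and Pcdhg and between Pcdha and Pcdhb, outside the 3 clusters, held 304 CCGG strand-sites, of which 159 had reads. In CPM it had 64.8 and 51.0 in aOPC against 50.1 and 57.0 in aOL, with overlapping groups, and no site of it was called.

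Variable exons of members without an RNA value had RRHP reads as well. The 14 Pcdha exons had 0.33 CPM per CCGG strand-site in aOPC and 0.35 in aOL, the 5 Pcdhb exons without an RNA value 0.47 and 0.53 where the 17 with one had 0.28 and 0.29, and the 3 such Pcdhg exons 0.52 and 0.43 where the other 19 had 0.51 and 0.33.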
